A study of Mus musculus with 2 samples.

Results

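The 8 genes described here are the nuclear long noncoding RNAs Malat1, Neat1, Meg3 and Kcnq1ot1 and the rRNA-like genes Gm26917, Gm42418, AY036118 and Lars2. They are 8 of the 32285 genes counted, and they were chosen by their measured share of UMIs (unique molecular identifiers, which tag captured RNA molecules) in barcodes of low depth or high mitochondrial content, with the fraction of mitochondrially encoded (mt-) transcripts as the other measured value. A barcode stands for a droplet and, in most cases, a cell. The 2 replicates, called lanes here, were summed barcode by barcode, and 10717 of 11056 barcodes had at least 200 genes and were kept. The genes were grouped as transcripts of damaged droplets, but damage was not measured, only depth, gene number and mt- share.

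The study profiled cells of femur and tibia by 3′ droplet sequencing. Marrow and digested bone from 3 untreated male mice aged 24 months, carrying the INK-ATTAC transgene (a p16 promoter that drives a drug-inducible killing construct), were pooled. Red cells were lysed, cells with lineage markers including Ter-119 were depleted on magnets, and live CD45-negative cells were sorted and given as 2 replicates. There was no treated, young or transgene-free group, so nothing here bears on age, treatment or genotype.

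Lane 1 held 116827845 UMIs in 10968 barcodes, with a median of 3980 UMIs. Lane 2 held 120556381 UMIs in 11016 barcodes, with a median of 4094.5. Barcodes were shared almost completely, since 10928 of the 11056 occurred in both lanes, so they were taken as lanes of the same cells and count as 1 biological sample. That they are lanes was read from the barcodes, as the labels name only replicates. The squared lane differences divided by the summed counts, near 1 under independent counting, were 0.559. Whether a molecule was counted in both was not tested, so summed UMIs measure depth and are not a number of molecules. Listed genes took 3.76% of UMIs in lane 1 and 3.78% in lane 2. After summing, the median was 8429 UMIs per barcode.

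Malat1 and Neat1 are abundant RNAs that stay in the nucleus, at speckles and paraspeckles respectively. Meg3 and Kcnq1ot1 are transcribed from imprinted loci, and each is kept in the nucleus as well. Gm42418 and AY036118 lie over an annotated ribosomal RNA gene, Gm26917 lies beside it, and Lars2 codes for the mitochondrial leucyl-tRNA synthetase and is listed here with the rRNA-like genes. The name rRNA-like is only a label, since neither Gm26917 nor Lars2 had a sequence match to that ribosomal RNA gene.

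Although the sample was labelled as mesenchymal, most barcodes were erythroid. A barcode was classed by the share of its non-mt- UMIs that fell on marker lists for LEPR stromal cells (at least 1%) or erythroid cells (at least 0.3%). Of the 10717 barcodes 7798 (72.8%) were erythroid, 2104 (19.6%) were LEPR stromal and 815 (7.60%) were neither. Near the class limits lay 305 barcodes for the LEPR share, 1355 for the erythroid share and 191 barcodes passed the limits of both lists. In LEPR stromal barcodes at or under 20% mt- the LEPR list had 45589 CPM (counts-per-million), against 85.6 in erythroid barcodes. For the erythroid list the values were 14611 in erythroid and 1315 in LEPR stromal barcodes. Over 20% mt- the class markers were lower, with 6388 CPM of the erythroid list and 5530 of globin (25536 at or under the limit) in erythroid barcodes and 22541 of the LEPR list in stromal ones. The neither class held plasma (52200 CPM) and megakaryocyte (11937 CPM) markers. Barcodes over 20% mt- numbered 1144, and 913 of them were erythroid, 39 LEPR stromal and 192 neither.

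Barcodes over 20% mt- were shallower than the others. In erythroid barcodes the median was 24434 UMIs at or under 20% mt- and 3367 over it, and in LEPR stromal barcodes it was 4931 and 2212. Over the same limit the median number of genes fell from 3414 to 685 in the erythroid class. The listed genes were picked for their shares in such barcodes, so the shares below do not test their grouping as transcripts of damaged droplets. Listed genes took 2.69% of UMIs in erythroid barcodes at or under 20% mt- and 11.8% in those over it. LEPR stromal barcodes gave them 17.4% already at or under the limit, more than in erythroid barcodes over it, and 19.3% above it. The neither class had 8.24% and 15%. When mt- UMIs were taken out of the denominator, the erythroid values were 2.79% and 19.6% and the LEPR stromal values 18.2% and 27.1%.

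Gm42418 was the largest of the 8 genes, and it made up most of the rRNA-like share. Its share of UMIs in erythroid barcodes was 2.01% in lane 1 and 2.03% in lane 2 at or under 20% mt-, and 9.82% and 9.88% over it, a log2 ratio of 2.28 (95% interval 2.28 to 2.29, 4.87-fold). These intervals, and all that follow, carry counting error only and not variation between mice. In LEPR stromal barcodes Gm42418 had 9.42% and 9.45% at or under the limit and 12.6% in each lane over it, a log2 ratio of 0.41 (0.39 to 0.44). The change was thus much smaller in the stromal class, where the share was high to begin with. Between classes at or under 20% mt- the share was higher in LEPR stromal barcodes by 2.22 log2 units over all depths. That did not hold at matched depth, where the ratios were 0.43 (1000 to 2000 UMIs), -0.21 (2000 to 4000), -0.24 (4000 to 8000) and 0.09 (8000 to 16000).

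Malat1, which is retained at nuclear speckles, went opposite ways in the classes as a share of all UMIs summed over barcodes. Erythroid barcodes had 0.443% and 0.442% in lanes 1 and 2 at or under 20% mt- and 1.02% in each lane over it, a log2 ratio of 1.20 (1.18 to 1.22). LEPR stromal barcodes had 7.39% and 7.34% at or under the limit and 6.07% and 5.99% over it, a log2 ratio of -0.29 (-0.33 to -0.25). As a share of non-mt- UMIs the stromal direction turned, from 7.67% to 8.45% (0.14), and the same held with globin UMIs left out too. Malat1 thus made up a 16.6-fold larger share in LEPR stromal than in erythroid barcodes at or under 20% mt- (log2 ratio 4.06). This ratio was as low as 2.84 under alternatives listed beforehand. At matched depth it was 0.23 between 1000 and 2000 UMIs and 2.38 between 8000 and 16000. In the neither class it had 2.07% at or under the limit and 1.31% over it.

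Lars2 had the largest ratio in the erythroid class. Its share was 0.0406% and 0.0409% in lanes 1 and 2 at or under 20% mt-, and 0.251% and 0.252% over it, a log2 ratio of 2.62 (2.58 to 2.67, 6.17-fold). In LEPR stromal barcodes the share went from 0.215% and 0.214% to 0.286% and 0.298%, a log2 ratio of 0.44 (0.24 to 0.64), which turned to -0.16 when barcode shares were averaged and to -0.04 with stricter marker shares. AY036118, the short gene inside Gm42418, had 0.0533% and 0.0550% in erythroid barcodes at or under the limit and 0.205% and 0.215% over it (log2 ratio 1.95, 1.91 to 2.0). In the stromal class AY036118 did not rise as a share of all UMIs, with 0.277% and 0.286% before and 0.243% and 0.252% after (-0.19, -0.40 to 0.02), but as a share of non-mt- UMIs it went from 0.293% to 0.346% (0.24). The classes also parted for Gm26917, the rRNA-like gene with the lowest stromal level. Erythroid barcodes had 0.103% and 0.104% at or under the limit and 0.443% and 0.447% over it (2.10, 2.07 to 2.13). Stromal barcodes had 0.0785% and 0.0804% of Gm26917, and 0.117% and 0.127% over the limit (0.62, 0.30 to 0.92).

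Among the less abundant nuclear RNAs, Kcnq1ot1, an antisense transcript of an imprinted locus, rose in erythroid barcodes from 0.0217% and 0.0215% to 0.0591% and 0.0610% (log2 ratio 1.47, 1.39 to 1.56). In the stromal class the lanes gave opposite signs for it (-0.18 and 0.74), and the interval of the mean included 0 (0.37, -0.36 to 1.01). Neat1, the scaffold of paraspeckles, had 0.00580% and 0.00564% in erythroid barcodes at or under the limit and 0.0124% and 0.0120% over it (1.1, 0.91 to 1.28). Stromal barcodes had for Neat1 0.0556% and 0.0559%, and 0.0425% and 0.0433% over the limit (-0.38, -0.93 to 0.12). Meg3 was nearly confined to other cells, with 22 UMIs in erythroid barcodes at or under the limit and 0 over it. No fold was formed there, and the upper limit over 20% mt- was 1.86 CPM. Stromal barcodes had 153 UMIs of it at or under 20% mt- and 4 over it, too few for a ratio with a useful interval (0.98, -2.09 to 2.88).

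All 7 listed genes with enough UMIs were thus at least 2-fold higher in erythroid barcodes over 20% mt- and 0 of 7 lower, where 12.2% and 20.2% of all 10969 genes tested were called higher and lower. In LEPR stromal barcodes 0 of 8 were higher and 0 of 8 lower, beside 3.46% and 37.9% of 9638 genes. With only 39 stromal barcodes over the limit many genes passed 2-fold on few UMIs, and only 0.498% and 4.53% also had an interval off 0. The all-gene median was -0.03 in the erythroid and -0.66 in the stromal comparison. Since the listed genes were picked for their shares in such barcodes, these counts are not a test. Erythroid barcodes over 20% mt- numbered 913 by marker share and 493 with clusters in place of marker shares. Cluster 6, taken up later, held 437 barcodes that were erythroid by marker share but met 0 of 14 erythroid markers as a cluster.

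For most of these genes the erythroid rise did not hold as a share of all UMIs at matched depth, a comparison chosen after seeing the data. Inside a band of 2000 to 4000 summed UMIs, where 337 erythroid barcodes lay over 20% mt- and 446 at or under it, 6 of the 7 genes were lower over the limit. Malat1 had 0.710% there against 2.07% (log2 ratio -1.54), Neat1 -2.20, Gm26917 -3.00, Lars2 -1.21, AY036118 -0.84 and Gm42418 -0.46. Only Kcnq1ot1 stayed higher in the band (1.44). Counted at 2-fold, 1 of 7 was higher and 4 of 7 lower, beside 0.626% and 49.7% of 2396 genes, with an all-gene median of -0.99. In this band mt- genes took 55.2% of UMIs over the limit and 3.17% at or under it, which leaves less for every other gene. A simple mean of the share of each barcode, which gives shallow and deep barcodes equal weight, also turned Malat1 (-0.47), Neat1 (-0.79) and Gm26917 (-0.43). It brought Gm42418 (0.93), AY036118 (0.62) and Lars2 (0.81) under 2-fold. For these 6 genes, damage and the low depth of the same barcodes therefore cannot be told apart as shares of all UMIs.

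At other depths the direction changed again. Between 1000 and 2000 UMIs (200 barcodes over, 360 at or under) Malat1 had 0.345% against 6.21%, a log2 ratio of -4.17. Between 8000 and 16000 UMIs (95 and 1046 barcodes) it was 0.25. Gm26917 went from -0.85 in the lowest band through -1.62 at 4000 to 8000 UMIs to 0.92 in the highest. For Gm42418 the ratios stayed small, 0.12, -0.46, -0.13 and 0.31 from the lowest to the highest band, and with mt- UMIs out of the denominator all were positive (1.38, 0.65, 0.43 and 0.67). So were those of AY036118 with that denominator (0.81, 0.27, 0.37 and 0.41). With all UMIs in the denominator Lars2 had -0.39, -1.21, 0.26 and 0.74, and AY036118 -0.45, -0.84, -0.18 and 0.04. As a share of all UMIs Kcnq1ot1 alone was higher in every band (1.33, 1.44, 1.92 and 1.89), with 0.0670% against 0.0177% at 4000 to 8000 UMIs. In the same order Neat1 had -3.62, -2.20, 0.16 and 0.31. Stromal barcodes filled only the band of 1000 to 2000 UMIs (17 over, 202 at or under), where Malat1 had -0.07, Gm42418 -0.23, Lars2 -0.98 and Gm26917 0.86.

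**Figure D1:**
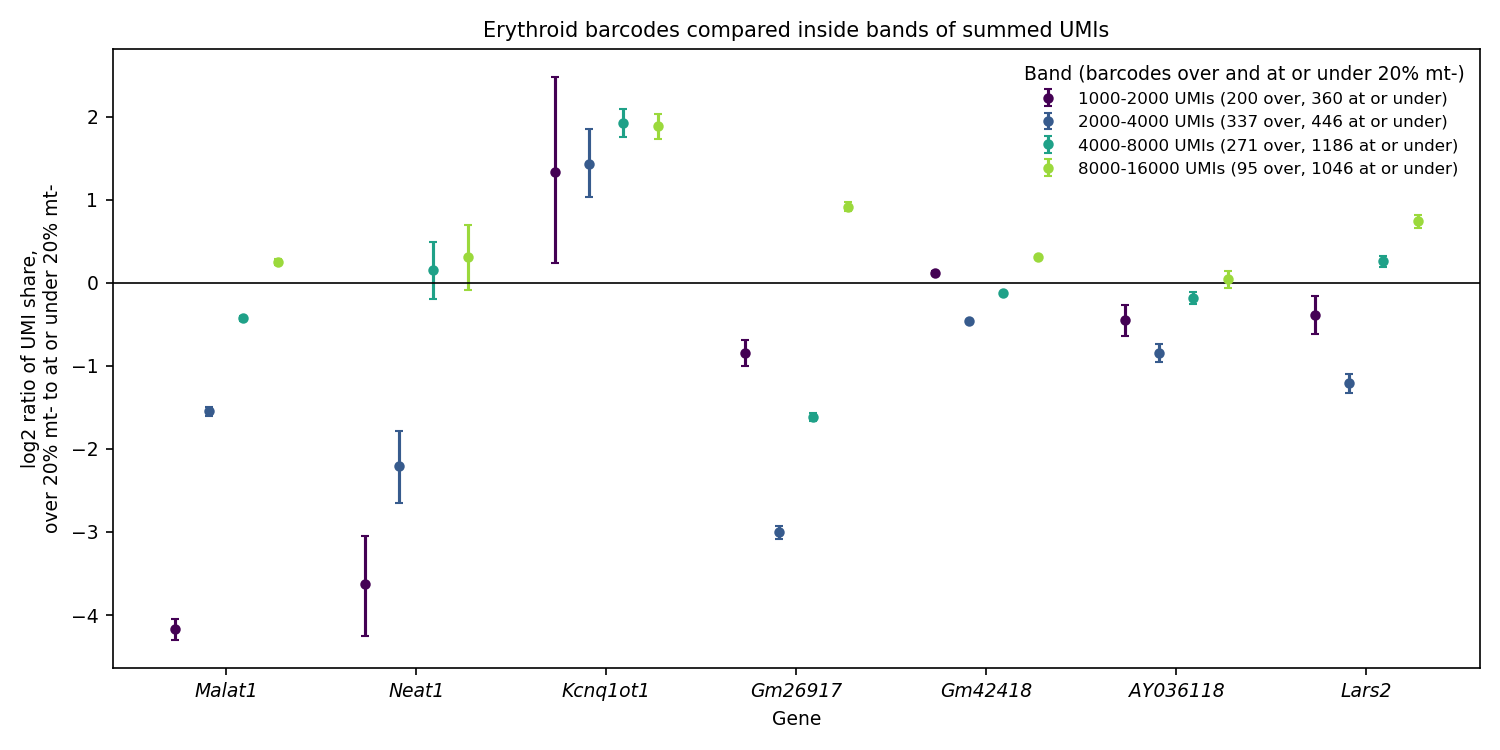
Log2 ratio of the share of UMIs in erythroid barcodes over 20% mt- to those at or under it, by gene, inside 4 bands of summed UMIs (points, lane mean; bars, 95% counting intervals). Kcnq1ot1 lay above 0 in every band, while Malat1 went from -4.17 to 0.25.

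The composition of shallow erythroid barcodes differed on the 2 sides of the limit. In the band of 1000 to 2000 UMIs globin took 7.03% of UMIs at or under 20% mt- and 0.635% over it. The low-mt- side held a group of small, globin-rich barcodes: 199 barcodes of that depth had under 1% mt-, with 8.98% globin, 7.99% Malat1 and 0.236% Neat1. Cluster 12, taken up later, holds such barcodes.

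By mt- share the erythroid class had a trough rather than a steady rise. Gm42418 had 6.28% of UMIs under 1% mt-, 1.36% at 2 to 5%, 9.10% at 10 to 20%, 11% at 20 to 40% and 3.23% at 80 to 100%. The deepest barcodes sat in the trough, with a median of 47260 UMIs at 2 to 5% mt- against 5188 under 1% and 5364 at 20 to 40%. Malat1 followed the same course, from 1.32% through 0.353% to 1.28%, and dropped to 0.104% in the last bin. So did Gm26917 (0.653%, 0.0502%, 0.554% and 0.121%) and Lars2 (0.133%, 0.0240%, 0.334% and 0.0525%). Kcnq1ot1 lacked the trough and rose from 0.00747% under 1% mt- to 0.0728% at 40 to 60%, before it fell to 0.0146% at 60 to 80%. As a share of non-mt- UMIs Gm42418 went on rising, from 1.41% at 2 to 5% mt- to 24.3% at 60 to 80%. Barcodes of the LEPR stromal class kept Malat1 between 6.26% and 7.94% in all 6 bins, while Gm42418 rose from 6.78% at 1 to 2% mt- to 12.8% at 5 to 10%.

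**Figure D2:**
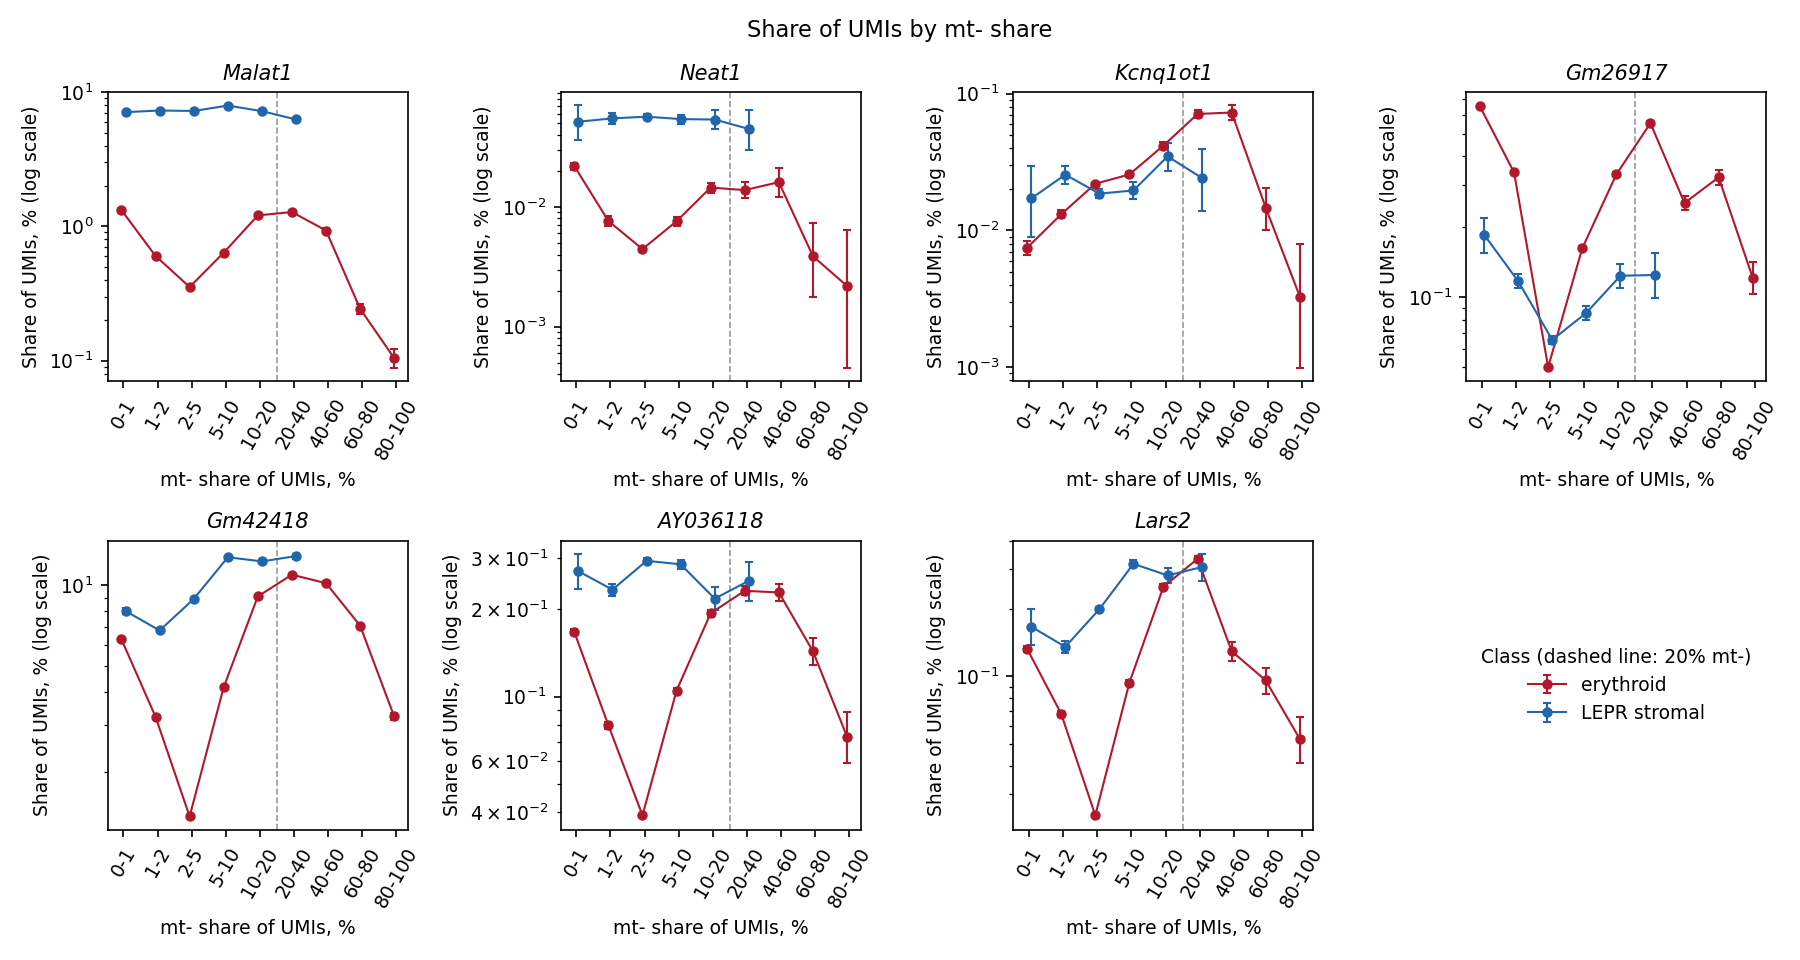
Share of UMIs (%, log axis) of 7 genes against bins of mt- share in erythroid (red) and LEPR stromal (blue) barcodes, with 95% counting intervals and a dashed line at 20%. The erythroid share of Gm42418 was lowest at 2 to 5% mt- (1.36%), and Malat1 in the stromal class stayed between 6.26% and 7.94%.

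Values on either side of the mt- limit were mostly close, and those at the gene limit were not. Barcodes with 18 to 20% mt- (93 barcodes) had 11.6% Gm42418 and 1.54% Malat1, and those with 20 to 22% (80 barcodes) had 10.0% and 1.88%. Gm26917 had 0.480% and 0.446% there, Lars2 0.311% and 0.317%, AY036118 0.25% and 0.214%, and Kcnq1ot1 0.0413% and 0.0583%. At the gene limit, 270 barcodes with at least 150 but under 200 genes had 5.20% Gm42418 and 257 with 200 to under 250 genes had 7.97%. For Malat1 these values were 0.0662% and 0.153%, for Gm26917 0.0688% and 0.141%, for Lars2 0.0890% and 0.133%, and for AY036118 0.109% and 0.137%. As shares of all UMIs these genes were thus lower in the group with fewer genes. As a share of non-mt- UMIs Gm42418 had 27.2% and 31.4%, but AY036118 turned, with 0.572% and 0.540%.

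Within barcodes at or under 20% mt- the rRNA-like share fell steeply with depth in the erythroid class. From the lowest to the highest quartile of summed UMIs, with medians of 4022.5, 10896, 40996 and 63200 UMIs, Gm42418 had 12.5%, 6.22%, 1.56% and 0.940%. The ratio of lowest to highest was 3.74 log2 units (3.73 to 3.74). The mean number of Gm42418 UMIs per barcode changed far less, at 481, 765, 621 and 637, so the share moved mainly with the total. AY036118 behaved alike, with 0.311% and 0.0281% in the outer quartiles (3.47, 3.43 to 3.51) and 11.9 and 19 UMIs per barcode there. Lars2 had 0.301% and 0.0157% (4.26, 4.22 to 4.30), and its UMIs per barcode were 11.5, 17.7, 10.6 and 10.6 from the lowest quartile up. The quartiles also set different clusters of cells against each other, since median depth ran from 1658 UMIs in cluster 12 and 3560 in 11 to 63406 in cluster 4, and depth was not separated from cell type there.

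Gm26917 had the steepest fall of the 8 genes. Its share was 1.65%, 0.310%, 0.0256% and 0.0244% from the lowest quartile up, 67.6-fold between the outer ones (log2 ratio 6.08, 6.05 to 6.11). Unlike Gm42418 it also lost UMIs per barcode, from 63.4 to 16.6. Its share also followed globin at matched depth: between 4000 and 8000 UMIs it went from 2.16% in barcodes with under 0.5% globin to 0.477% in those with at least 6%, whereas Gm42418 went only from 12% to 9.02%.

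The nuclear RNAs were less uniform. Malat1 had 2.02%, 0.940%, 0.306% and 0.343% (2.55, 2.54 to 2.57) while its UMIs per barcode rose from 77.5 to 233. For Neat1 the outer quartiles had 0.0342% and 0.00480% (2.83, 2.73 to 2.93), but with erythroid-like clusters for the class the ratio was 1.01. Those clusters leave out unnamed cluster 12, which was high in Neat1, among others, and what moved the ratio was not tested. Kcnq1ot1 went the other way, from 0.0151% to 0.0269% (-0.83, -0.96 to -0.70), and its UMIs per barcode rose from 0.580 to 18.2. Of 7 genes tested 6 were at least 2-fold higher in the lowest quartile and 0 lower, beside 17.5% and 14.1% of 10227 genes (all-gene median 0.08). Kcnq1ot1 passed 2-fold in the lower direction when the mt- limit was 10%, when barcode shares were averaged, and when only barcodes of 2 to 5% mt- were used.

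With only barcodes of 2 to 5% mt-, also chosen after seeing the data, the rRNA-like genes were over 2-fold higher in shallow barcodes, with smaller ratios. Depth quartiles were cut anew inside these barcodes, so the depth contrast changed together with the mt- share. Between outer depth quartiles of 954 barcodes each, Gm26917 had a log2 ratio of 4.15 (6.08 without the restriction), Lars2 2.85 (4.26), Gm42418 2.53 (3.74) and AY036118 2.33 (3.47). Of the nuclear genes Malat1 fell from 2.55 to 0.93 and Neat1 from 2.83 to 0.24, so neither reached 2-fold, and Kcnq1ot1 went from -0.83 to -1.44. That made 4 of 7 higher and 1 of 7 lower, beside 2.37% and 2.57% of 9745 genes (all-gene median -0.12).

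In the LEPR stromal class the same course was shallow. From the lowest to the highest quartile (517 and 516 barcodes) Gm42418 had 13.1%, 11.5%, 9.61% and 7.56%, and Malat1 9.54%, 8.73%, 7.89% and 5.95%. The log2 ratios of the outer quartiles were 0.79 for Gm42418, 0.68 for Malat1 and 0.97 for Lars2 (0.89 to 1.06). AY036118 was flat (0.06, -0.02 to 0.14), with 0.292% and 0.280%, and slightly negative with clusters for classes (-0.12). Neat1 (0.25, 0.07 to 0.43) and Kcnq1ot1 (0.33, 0.04 to 0.60) were slightly higher in shallow barcodes, and Gm26917 was lower (-0.34, -0.49 to -0.19). Meg3 had 7 UMIs in the lowest and 70 in the highest quartile and was not tested. With 0 of 7 higher and 0 of 7 lower, beside 0.804% and 4.55% of 7708 genes (all-gene median -0.23), no listed gene reached 2-fold, but Lars2 passed it when mt- UMIs were left out of the denominator or called doublets were dropped. Gm26917 passed 2-fold in the lower direction when clusters replaced the marker classes, and turned to 0.19 when called doublets were dropped.

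**Figure D3:**
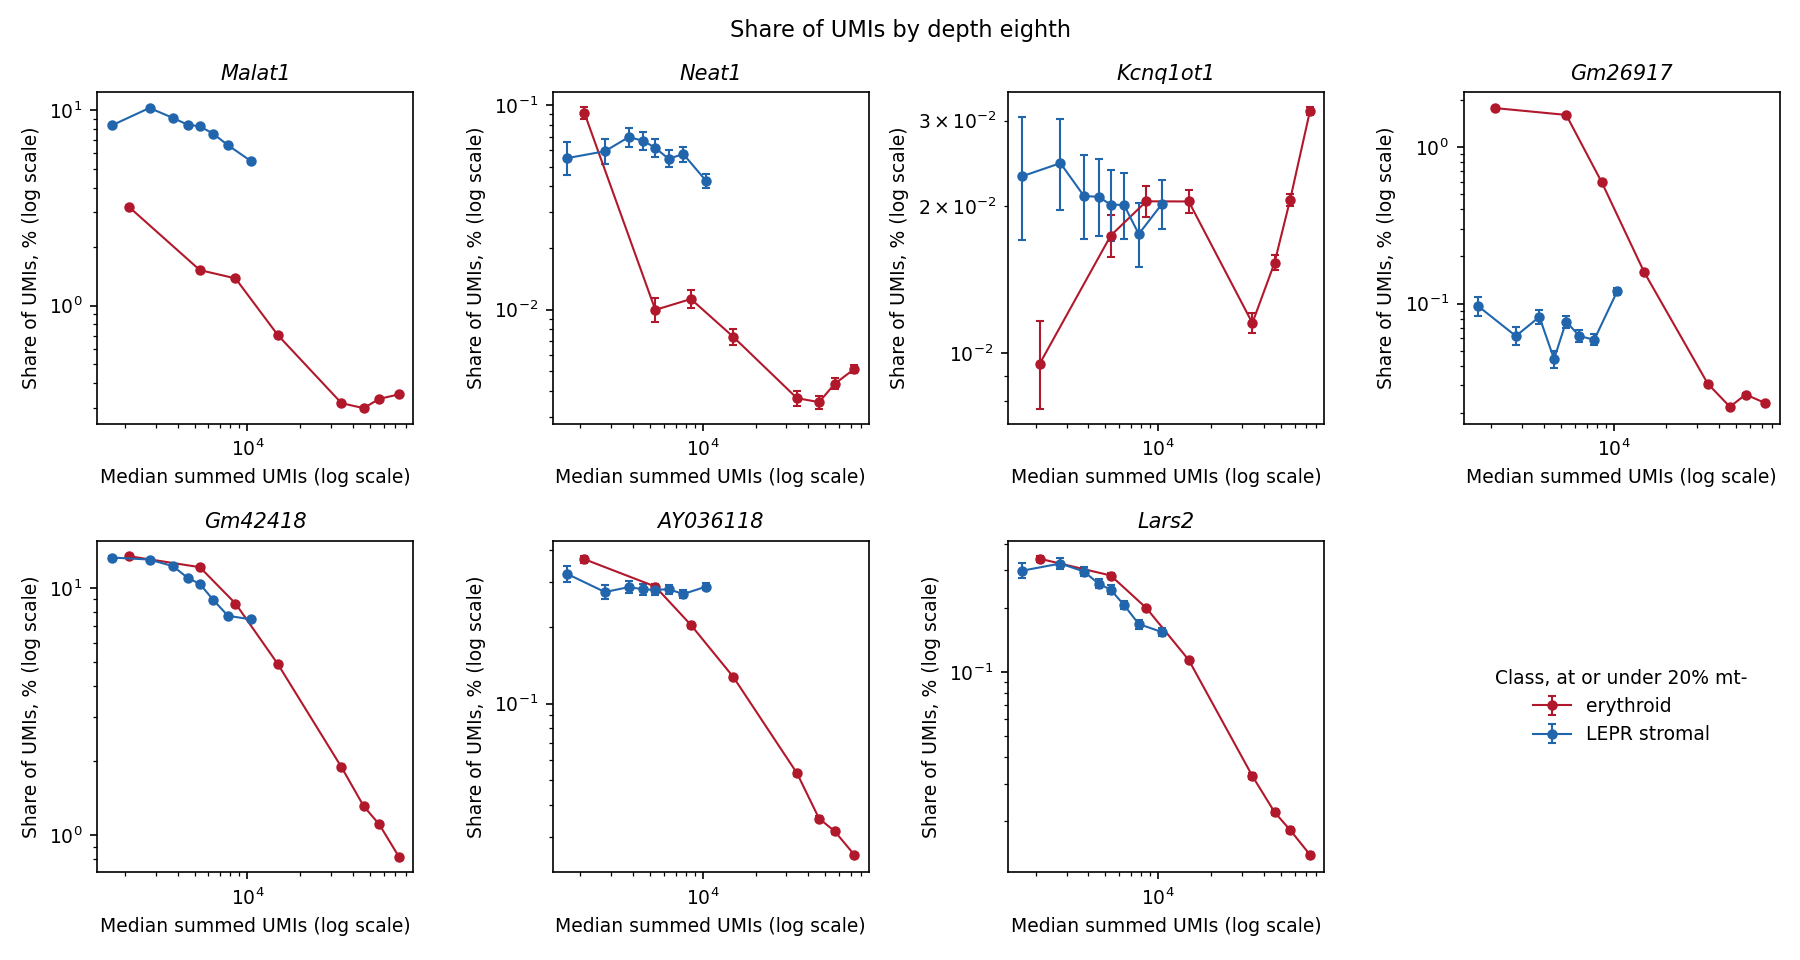
Share of UMIs (%, log axis) of 7 genes against the median summed UMIs (log axis) of depth eighths in erythroid (red) and LEPR stromal (blue) barcodes at or under 20% mt-, with 95% counting intervals. Gm42418 went from 13.4% to 0.819% across the erythroid eighths, and Kcnq1ot1 rose from 0.00953% to 0.0314%.

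Over single barcodes the share of Gm42418 and the summed UMIs had a Spearman correlation of -0.839 in 6885 erythroid barcodes and -0.335 in 2065 LEPR stromal ones. Each point shares its denominator with the depth, so the sign describes the share and not a rate. AY036118 had -0.770 and Lars2 -0.634 in the erythroid class, Malat1 -0.404 and Gm26917 -0.344, whereas Kcnq1ot1 (0.421) and Neat1 (0.127) were positive. Gm42418 and Lars2 moved together across barcodes, with 0.840 in the erythroid and 0.766 in the stromal class, and still 0.747 and 0.805 between 4000 and 8000 UMIs. The overlapping pair Gm42418 and AY036118 had 0.868 and 0.395, and 0.587 and 0.432 in that band. For Malat1 and Neat1 the values were 0.314 and 0.358, and 0.245 and 0.283 in the band.

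Compared at equal depth, the classes differed less for Gm42418, AY036118 and Lars2 and far more for Gm26917. Over all depths at or under 20% mt-, LEPR stromal barcodes were higher than erythroid ones for Malat1 (4.06), Neat1 (3.29), Meg3 (7.04, 6.12 to 8.10), AY036118 (2.38), Lars2 (2.40) and Gm42418 (2.22), and lower for Gm26917 (-0.38, -0.43 to -0.34) and slightly for Kcnq1ot1 (-0.10, -0.18 to -0.01). That is 6 of 8 higher at 2-fold and 0 of 8 lower, beside 44.7% and 19.6% of 12529 genes (all-gene median 0.71). Between 4000 and 8000 UMIs, with 1000 stromal and 1186 erythroid barcodes, Gm42418 had 9.64% in the stromal and 11.4% in the erythroid class, a log2 ratio of -0.24. Lars2 turned as well (-0.24), and AY036118 was level (0.03). Malat1 kept 7.80% against 1.51% (2.37) and Neat1 a ratio of 2.51. Gm26917 was now far lower in stromal barcodes, 0.0600% against 1.35% (-4.49). The band had 2 of 7 higher and 1 of 7 lower, beside 39.5% and 19.5% of 9466 genes (all-gene median 0.46). Averaged barcode shares also brought Gm42418 (0.94) and Lars2 (0.96) under 2-fold over all depths, and lowered Neat1 to 1.51 and AY036118 to 1.01. Averaging barcode shares or using clusters took Gm26917 past 2-fold in the lower direction, whereas marker shares of 2% and 0.6% turned it to 0.23 over all depths. Kcnq1ot1 turned as well, to 0.20 with averaged barcode shares and 0.13 in the band.

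The order of the classes changed with the band for most genes. Malat1 had class ratios of 0.23, 2.25, 2.37 and 2.38 from 1000 to 2000 up to 8000 to 16000 UMIs, and Gm42418 0.43, -0.21, -0.24 and 0.09. AY036118 had 0.13, -0.46, 0.03 and 0.82, and Lars2 0.49, -0.32, -0.24 and -0.15. Gm26917 was lower in stromal barcodes in every band (-2.28, -4.83, -4.49 and -1.70). Kcnq1ot1 fell across the bands, from 2.17 through 1.06 and 0.13 to -0.29. Neat1 was lower in stromal barcodes only in the shallowest band (-2.08). Meg3 had 4.67 at 4000 to 8000 and 5.90 at 8000 to 16000 UMIs.

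Fixed lists of related genes give a frame for these ratios. Over 20% mt- in the erythroid class, all 13 mitochondrially encoded genes were at least 2-fold higher (median 3.58, 39.7% against 3.49% of UMIs), as the grouping requires. Ribosomal protein genes were lower, 77 of 78 (median -1.89, 8.60% against 29.9%), and of 20 abundant cytoplasmic mRNAs 11 were lower (median -1.35), Gapdh at -2.11 and Actb at -1.48. Other nuclear or imprinted noncoding RNAs lay above the all-gene median of -0.03, with 2 of 9 higher (median 0.71), Snhg14 at 1.74 and Tug1 at 0.70. The remaining lists had 0 of 11 snoRNA host RNAs higher and 2 lower (median -0.49), 2 of 22 speckle and paraspeckle protein genes higher and 1 lower (0.01), 2 of 16 mitochondrial tRNA synthetases higher and 1 lower (-0.11), and 0 of 7 neighbours of the listed loci higher and 1 lower (-0.08). Lars2 at 2.62 was far above its family, in which Vars2 led with 1.58. Of 13 repeat-like genes in the table only 2 had enough UMIs, and both were higher (median 2.47), Gm15564 at 3.44 and Rmrp at 1.51. Of all genes tested 12.2% were higher and 20.2% lower. Inside the band of 2000 to 4000 UMIs (0.626% and 49.7% of all genes, median -0.99) 0 of 2 noncoding RNAs were higher and 1 lower (median -0.52), and 15 of 18 cytoplasmic mRNAs (-1.52), 74 of 76 ribosomal protein genes (-1.69), 4 of 7 snoRNA hosts (-1.03) and 4 of 21 speckle genes (-0.72) were lower.

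Among LEPR stromal barcodes over 20% mt- the 13 mt- genes were again all higher (median 2.73). No gene of any other list was. Lower genes were 2 of 7 noncoding RNAs (median -0.41), 2 of 12 snoRNA hosts (0.17), 2 of 22 speckle genes (-0.23) and 3 of 9 tRNA synthetases (-0.59). So were 6 of 20 cytoplasmic mRNAs (-0.76), 4 of 78 ribosomal protein genes (-0.45) and 2 of 7 neighbours (-0.43). Among all genes 37.9% were lower and 3.46% higher (median -0.66), and no list was tested against them. The repeat-like gene Gm15564 was level (0.01).

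By depth in the erythroid class, 2 of 2 repeat-like genes (median 3.38), 6 of 22 speckle genes (0.22), 5 of 16 tRNA synthetases with 1 lower (0.55), 2 of 6 noncoding RNAs (0.20), 2 of 20 cytoplasmic mRNAs with 5 lower (-0.64), 2 of 7 neighbours with 3 lower (-0.70) and 1 of 78 ribosomal protein genes with 26 lower (-0.63) were higher in the lowest quartile. Of 11 snoRNA hosts 0 were higher and 1 lower (-0.06), and of 13 mt- genes none moved 2-fold (0.21). Of all genes tested 17.5% were higher and 14.1% lower (median 0.08). Gm15564 had 3.72 and Rmrp 3.03. With only barcodes of 2 to 5% mt-, and depth quartiles cut anew, calls among all genes fell to 2.37% higher and 2.57% lower. There 0 of 22 speckle genes, 0 of 16 tRNA synthetases and 0 of 6 noncoding RNAs were higher and 0 of 78 ribosomal protein genes lower. The 1 repeat-like gene tested was higher (1.70). In the stromal class only 3 of 7 noncoding RNAs (median 0.55) and 2 of 13 mt- genes (0.86) were higher, and 0 of 11 snoRNA hosts (0.33), 0 of 22 speckle genes (0.38), 0 of 4 tRNA synthetases (0.36), 0 of 20 cytoplasmic mRNAs (-0.41), 0 of 78 ribosomal protein genes (-0.26) and 0 of 6 neighbours (0.01), with none lower, beside 0.804% of all genes higher and 4.55% lower (median -0.23).

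Between the classes, LEPR stromal barcodes had lower ribosomal protein genes, 76 of 78 with 1 higher (median -2.23, 6.41% against 29.9% of UMIs), and lower cytoplasmic mRNAs, 11 of 20 with 5 higher (-1.12). Of 10 noncoding RNAs 6 were higher and 1 lower (1.61), such as Snhg11 (9.06) and Peg13 (6.4). Neighbours of the listed loci had 5 of 8 higher and 1 lower (1.06). The snoRNA hosts had 2 of 12 higher and 8 lower (-1.26), the speckle genes 5 of 22 higher and 0 lower (0.08), the tRNA synthetases 1 of 16 higher and 2 lower (-0.32), the mt- genes 2 of 13 higher and 0 lower (0.52), and the repeat-like genes 1 of 2 higher. Among all genes 44.7% were higher and 19.6% lower (median 0.71). Between 4000 and 8000 UMIs (39.5% and 19.5%, median 0.46) the median of the cytoplasmic mRNAs was 0.35, with 6 higher and 7 lower. The noncoding RNAs had 3 of 8 higher and 1 lower (0.23), and 70 of 78 ribosomal protein genes were lower (-1.88).

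Most genes that led each comparison were not among the 8. A gene with 0 UMIs in either group was not ranked. Over 20% mt- in the erythroid class Rgs5 led with 5.52, on 92 UMIs against 108, followed by mt-Nd6 (3.73), mt-Nd4l (3.71), mt-Nd3 (3.70) and mt-Nd2 (3.62). Rgs5 marks pericytes, and it had 23.2 CPM in these barcodes and 0.507 at or under the limit. The pericyte list, which includes Rgs5, had 26.0 and 1.03 CPM, so Rgs5 itself made up most of the level of the list over the limit. At the other end were Arl6 (-3.96), Adamts13 (-3.73), Mtap (-3.52), Fam124a (-3.48) and Senp8 (-3.35), each with at most 3 UMIs over the limit and, Mtap apart, with 1 UMI from a single lane. Upward in the stromal class mt-Co1 (3.21), Aspn (3.10), mt-Co3 (3.04), mt-Co2 (3.03) and mt-Nd1 (2.95) led. Lgals1 (-4.79), Cyba (-4.19), Gm36266 (-3.99), Dhrs7 (-3.89) and Herpud1 (-3.83) led downward on 1 UMI each, from a single lane.

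With depth the lowest erythroid quartile was led by Slfn14 (8.03), Xpo7 (6.84), Gm26917 (6.08), Tmcc2 (5.96) and Tcp11l2 (5.95). So 1 of the 8 listed genes was among the 5 leading ones. Downward came D830024N08Rik (-4.02), Lyrm1 (-3.67), Fabp5 (-3.33), Plek2 (-3.28) and Cda (-3.22), the first 2 on 1 UMI each in the lowest quartile. Shallow stromal barcodes were led by Rad51ap2 (2.40), Slpi (2.25), Ighm (2.17), 4921531C22Rik (2.17) and Hist4h4 (2.16), and on the lower side by Cxcl10 (-4.21), Prg4 (-3.44), Hsd11b1 (-2.38), Mfap5 (-2.28) and Gbp2 (-2.07). For the classes, Slc2a13 (10.53), Des (10.38), Tfpi2 (10.30), 3110021N24Rik (10.19) and Gm26632 (10.19) led in LEPR stromal barcodes, and Lrp8 (-6.07), Ugt8a (-5.48), Mageb16 (-5.19), Gm50322 (-5.02) and Gm43154 (-4.96) in erythroid ones. Those higher in stromal barcodes had 3 to 5 erythroid UMIs each, and those higher in erythroid barcodes 1 stromal UMI each, so these ratios are loose.

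Clustering of the summed counts, with the listed and mt- genes kept out of the variable genes, gave 18 clusters, of which 9 were erythroid-like (0, 2, 3, 4, 7, 8, 9, 10 and 11, with 7038 barcodes). Cluster 1 was LEPR-like (1329 barcodes), 14 megakaryocyte-like, 15 fibroblast-like, 16 endothelial-like and 17 plasma-like, and 5, 6, 12 and 13 stayed unnamed. Of the unnamed ones, clusters 12 and 13 were nearest to the erythroid list, and cluster 5 (901 barcodes, 755 of them LEPR stromal by marker share) had a median of only 2800 UMIs. Leading genes were ranked with mt- genes left out, so no mt- gene could lead a cluster. In that ranking several clusters were led by listed genes. In cluster 6, which held 551 barcodes over 20% mt- among 587 and a median mt- share of 68.7%, Lars2, Gm42418, Gm26917 and AY036118 led, and 0 of 14 erythroid markers were met, although 437 of its barcodes were erythroid by marker share. Clusters 6 and 9 held most barcodes over 20% mt- (551 and 297 of 1144) and few of the others, so the erythroid comparison at that limit sets largely different clusters against each other. Cluster 11 (425 barcodes) was led by Gm26917 and Lars2, cluster 13 (170 barcodes) by Lars2, Gm42418 and AY036118, cluster 3 (1047 barcodes, 0.486% globin) by Gm26917, and cluster 9 (460 barcodes, 297 over 20% mt-) by Kcnq1ot1. Cluster 12 (260 barcodes, median 1658 UMIs, 16.3% globin) was led by Slfn14, Xpo7 and Tmcc2.

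By cluster Malat1 was highest in cluster 12 (89603 CPM), then 1 (68885), 5 (43049), 17 (41174), 15 (31130) and 16 (24955). Clusters 3 (16557), 2 (15114), 9 (9932), 11 (6404), 13 (6252), 14 (6137) and 10 (4643) came next, with 11, 13 and 14 within counting error of each other. The lowest were 8 (3713), 0 (3267), 6 (2991), 4 (2786) and 7 (504). The globin-rich cluster 12 thus stood above the stromal clusters. Neat1 was highest there as well (3321 CPM), followed at a distance by 15 (525), 17 (521) and 1 (519), which could not be told apart, and by 16 (362), 5 (333) and 14 (322), which could not either. Clusters 3 (129), 9 (126) and 2 (120) were alike, and 13 (63.3), 10 (47.7), 0 (45.9), 4 (41.6), 6 (39.7), 11 (37.4), 8 (31.5) and 7 (5.69) were low. Per 1000 Malat1 UMIs there were 37.1 of Neat1 in cluster 12, 52.4 in megakaryocyte-like cluster 14 and 5.84 in cluster 11.

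Meg3, an imprinted noncoding RNA, belonged to fibroblast-like cluster 15 (144 CPM, 24.0% of barcodes with a UMI). It was low in 5 (12.5) and 1 (11.2), near 0 in 7 (0.345), 3 (0.128) and 4 (0.0162), and had no UMI in the other 12 clusters. The lanes had 217 and 214 UMIs of it in all. Kcnq1ot1 had a different order from every other listed gene, with 9 (761 CPM), 3 (429) and 4 (303) first and 15 (259), 5 (249) and 0 (202) after them. A run of neighbours within counting error followed, 1 (187), 2 (185), 16 (180), 14 (153), 17 (141), 8 (136), 10 (123), 13 (98.2), 12 (84.4), 11 (64.6) and 6 (50.4), and then 7 (24.1). Cluster 6, the highest in mt- share, was thus among the lowest for it.

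Gm26917 was high in 4 erythroid or mt-rich clusters, 3 (16637 CPM), 11 (13745), 2 (8075) and 6 (3433). Clusters 9 (1472) and 16 (1413) were alike, as were 13 (1115), 12 (953) and 5 (924), and 1 (534), 15 (516) and 14 (477). The lowest were 10 (347), 4 (260), 8 (250), 0 (227), 17 (191) and 7 (141). Gm42418 was more even. It had 127850 CPM in cluster 6, 120078 in 11, and in 2 (103630) and 3 (103608) values that could not be separated. Clusters 16 (97201), 1 (84730), 5 (66563), 9 (61171), 15 (50166), 12 (48564) and 13 (42526) lay between, and 14 (21865), 10 (20147), 7 (18873), 17 (18316), 0 (12735), 8 (12636) and 4 (9541) were lowest.

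AY036118 was highest in LEPR-like cluster 1 (2877 CPM) and in 11 (2770), ahead of 3 (2445), 2 (2250), 16 (2207), 6 (1805), 12 (1726) and 9 (1655). It then fell through 15 (1352), 5 (1330), 13 (1072), 10 (666), 14 (641), 7 (589) and 17 (448) to 8 (352), 0 (348) and 4 (299.5). Lars2 was highest in 11 (3351), 2 (2932), 6 (2719), 3 (2378), 16 (2010) and 1 (1836). Clusters 5 (1599), 9 (1313), 13 (966), 15 (898) and 12 (527) followed, and 14 (373), 17 (357), 10 (343), 7 (323), 8 (228), 0 (214) and 4 (157) were lowest. All 4 rRNA-like genes were low in clusters 4, 8 and 0, the deepest ones.

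Ratios between the genes show where they parted. AY036118 had 26.8 UMIs for every 1000 of Gm42418 in erythroid barcodes at or under 20% mt- and 21.3 over it, and 29.8 and 19.7 in the stromal class. Across clusters the range was 14.1 (cluster 6) to 35.5 (cluster 12). Lars2 had 20.2 and 22.8 for every 1000 of Gm42418 in the erythroid and stromal classes, with a range over clusters of 10.9 (cluster 12) to 28.3 (cluster 2). Gm26917 was far less tied to Gm42418, with 51.3 in the erythroid and 8.42 in the stromal class, 160.6 in cluster 3 and 6.30 in cluster 1.

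Over the 18 clusters the genes most alike each listed gene were found by Pearson correlation of log2(CPM + 1), where each point is a cluster and all points come from 1 pool of cells. Malat1 was nearest to Neat1 (0.928), Crebl2 (0.906) and Trim26 (0.898), and Neat1 to Ccng2 (0.936), Ern1 (0.934) and Malat1. Gm42418 was nearest to Lars2 (0.984), AY036118 (0.971) and Gm26917 (0.836). For AY036118 the nearest were Gm42418 (0.971), Lars2 (0.936) and Atp9b (0.810), and for Lars2 Gm42418, AY036118 and Gm26917 (0.852). Gm26917 itself lay closest to protein-coding genes, Wdr7 (0.889), Abca7 (0.856) and Piezo1 (0.855). Meg3 lay with Ecrg4 (0.983), Timp1 (0.965) and Mmp13 (0.961). Kcnq1ot1 was nearest to Slc38a2 (0.910), Tecpr2 (0.886) and Zfp292 (0.870), and to no listed gene closely, with 0.0484 for Gm42418 and 0.413 for Malat1.

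Detection was compared after thinning each barcode to 1000 UMIs, which left out 409 of 6885 erythroid and 209 of 2065 stromal barcodes at or under 20% mt-, and 213 of 913 and 19 of 39 over it. Malat1 was found in 84.6% of thinned erythroid barcodes at or under the limit (95.2% before thinning) and in 84.9% over it (88.2%). For Gm26917 these values were 40.1% (85.5%) and 72.7% (84.8%), and for Lars2 44.3% (95.8%) and 61.6% (82.5%). AY036118 had 52.2% (98.7%) and 78.6% (94.7%), and Kcnq1ot1 15% (58.9%) and 27.1% (37.3%). Neat1 had 6.15% (46.8%) and 9.86% (22.9%), and Gm42418 was found in 99.9% (100%) at or under the limit. Before thinning all 6 of these genes other than Gm42418 were found more often at or under the limit, where the median was 24434 UMIs against 3367, and after it 5 were found more often over the limit and Malat1 was level. This is not a test, because the genes were picked for their shares in such barcodes. Detection of other genes after thinning is not given here.

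In the stromal class at or under 20% mt- Malat1 was found in 98.4% of thinned barcodes (97.3% before, with the shallowest included), AY036118 in 86.6% (98.6%), Lars2 in 80.7% (98.0%) and Neat1 in 40.6% (74.7%). Gm26917 had 31.3% (65.5%), Kcnq1ot1 16.0% (36.9%) and Meg3 0.916% (1.36%). Over the limit, where only 20 barcodes were left, Neat1 had 35.0% (56.4%), Gm26917 60% (82.1%), Lars2 85.0% (92.3%), Kcnq1ot1 15% (35.9%), AY036118 80% (97.4%) and Meg3 5.0% (5.13%), and Malat1 was found in all.

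Several of the genes are neighbours in the genome (GRCm38, GENCODE M21). Malat1 (chr19:5795690-5802672) and Neat1 (chr19:5824708-5845478) lie on the minus strand with 22035 bases between them. On chromosome 17 Gm26917 (chr17:39843013-39846341, plus strand) is followed after 616 bases by Gm42418 (chr17:39846958-39848788, plus strand). Inside Gm42418, on the minus strand, lies all of AY036118 (chr17:39847113-39848035), and its 923 bases match Gm42418 at 100% on opposite strands. An annotated ribosomal RNA gene, CT010467.1 (chr17:39846353-39848827, minus strand), covers both and was not analysed here, as the count table has no line for it. Within the shared bases only strand tells the reads of the pair apart. The strand setting of the counting was not stated, and AY036118 had 165923 UMIs. Lars2 (chr9:123366927-123462666, plus strand) is protein-coding, and its 9 annotated transcripts had 0 matches to the annotated rRNA or to the 3 genes on chromosome 17. Gm26917 was in none of the 12 gene pairs with a match, so it lies beside the annotated rRNA without a match to it. Meg3 (chr12:109541001-109571726, plus strand) and Kcnq1ot1 (chr7:143203458-143296549, minus strand) each have no other listed gene on the same chromosome.

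The shared stretch of Gm42418 and AY036118 is shown with 30 bases from chr17:39847546-39847575, where the capitals mark the 20 central bases, each read 5′ to 3′ on its own strand (plus for Gm42418, minus for AY036118). They are exact reverse complements.
Gm42418: gaaacTTAAAGGAATTGACGGAAGGgcacc
AY036118: ggtgcCCTTCCGTCAATTCCTTTAAgtttc

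Capture in this method starts at the poly(A) tail of an RNA, and it can also start at runs of A inside it. The tail is not part of the annotated sequence, so a transcript without an inner run can still be captured. For inner runs the transcripts were searched for at least 10 consecutive A (aaaaaaaaaa). Malat1-201 has 1 such run, of 12 A, which lies 298 bases from the 3′ end, and 31.0% of 1782 transcripts of like length have a run. Meg3-209 has 6 (35.9% of 170) and Kcnq1ot1-201 has 10, the longest of 41 A, with only 4 transcripts of like length (75% with a run). Gm26917-202 (15.9% of 8189), Gm42418-201 (7.82% of 8195), AY036118-201 (2.92% of 10334), Lars2-201 (18% of 6958) and Neat1-201 (28.6% of 21) have none. Of the other Lars2 transcripts, Lars2-203 has a run of 11 A and Lars2-205 of 10. The 3 other transcripts of Malat1 and the 10 others of Meg3 have none. Long transcripts have runs more often, and where the reads began was not examined. Set under each other are a run of A in Malat1 (chr19:5795979-5796008, minus strand) and in Kcnq1ot1 (chr7:143206485-143206514, minus strand), with the run in capitals, and the 20 bases richest in A, in capitals, of Gm42418 (chr17:39847162-39847191, plus strand) and Gm26917 (chr17:39845151-39845180, plus strand), which have 11 and 9 A.
Malat1: cctagctttAAAAAAAAAAAAgcaaaagac
Kcnq1ot1: tccacgcttAAAAAAAAAAAActggcatga
Gm42418: ctttgAAAAAATTAGAGTGTTCAAAgcagg
Gm26917: gagggCAAAGGGAAAGAGGCTAGCAgtggt

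In erythroid barcodes over 20% mt- the listed genes took 11.8% of UMIs, and in shallow, globin-rich cluster 12 Malat1 and Neat1 had their highest levels while Gm26917 had 953 CPM. In the erythroid class Kcnq1ot1 was the exception among the 8, the only listed gene whose share of all UMIs was higher over 20% mt- in each depth band and lower in the shallowest quartile. Most barcodes over 20% mt- lay in cluster 9, the highest for Kcnq1ot1 (761 CPM), and cluster 6, among the lowest (50.4 CPM), and the rise was not taken apart by cluster. In the stromal class the depth relation was unclear, with a slightly higher share of Kcnq1ot1 in the shallowest quartile (0.33, and 0.0081 with clusters) but a Spearman correlation of 0.141 with depth.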

How the data were processed

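For either replicate (lane) the authors ran Cell Ranger on mm10. The software version in the file headers, 3.0.2, is not the one in the published methods, and which applies was not settled. The deposited values are UMI counts, used as they came. Both lanes were summed by barcode, and 10717 barcodes with at least 200 genes were kept. The share of UMIs in a group was its summed UMIs over its total, and ratios were formed between groups with exact conditional binomial 95% intervals on the mean of the lanes, which carry counting error only. With 1 pooled sample no test was made. A gene needed 50 UMIs to be tested, was called at 2-fold, and needed 100 UMIs, at least 1 in each group and the same direction in both lanes to be named among the 5 leading ones each way, and 1000 to be named as alike. A group with 0 UMIs was given an upper limit.

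LEPR stromal barcodes had at least 1% and 3 UMIs on the LEPR list and more than on the erythroid list. Erythroid barcodes had at least 0.3% and 3 UMIs on the erythroid list and under 0.5% on the LEPR list. These limits were set after the distribution of the shares had been seen, and the listed genes and gene lists were chosen with earlier results of these data known. The lists were other noncoding RNAs, snoRNA hosts, speckle proteins, mitochondrial tRNA synthetases, mt- genes, cytoplasmic mRNAs, ribosomal proteins, repeat-like genes and neighbours. Clusters came from Seurat 5.3.0 (sctransform 0.4.2, R 4.3.3, 3000 variable genes asked, 2980 used, 30 components, resolution 0.8). A cluster was named when at least 3 markers of a list had a UMI in 10% of its barcodes and 25% of the highest cluster level. It stayed unnamed when its 10 leading genes held more markers of another list, or when they held none of its own and its median depth was under the overall median divided by 3. Scrublet in scanpy 1.11.5 (expected rate 8%) called 198 doublets (1.85%), which were kept. Other steps used Python 3.11.15, numpy 2.4.6, scipy 1.17.1, pandas 2.3.3 and blastn 2.17.0 on GENCODE M21. The code was tested on simulated data.

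Alternatives were other denominators, 500 genes, a 10% mt- limit, clusters for marker shares, doublets left out, either lane alone and barcode means. Added after the data had been seen were matched bands of depth or mt- share and marker shares of 2% and 0.6%.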

Additional observations from a re-analysis of the deposited data

Results flagged for a closer look

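Several differences between the classes stood out, each in both lanes. Malat1 over 20% mt- against at or under it had log2 ratios of 1.20 and 1.20 in erythroid barcodes (lanes 1 and 2) and -0.28 and -0.29 in LEPR stromal ones. This opposition did not hold throughout: as a share of non-mt- UMIs the stromal ratio was 0.14, with barcode means the erythroid ratio was -0.47 and the stromal -0.23, and inside depth bands the erythroid ratio was -4.17, -1.54, -0.43 and 0.25 from the shallowest up. Kcnq1ot1 in the lowest against the highest depth quartile had -0.85 and -0.82 in the erythroid class and 0.43 and 0.22 in the stromal class. In the same comparison Gm26917 had 6.09 and 6.07 in the erythroid class and -0.28 and -0.40 in the stromal class, where it was 0.19 without called doublets. Each of these differences was not tested, since the lanes hold the same cells of 1 pool.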

How the results depend on the processing

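No paired analysis was possible because there was a single group, and its lanes held the same cells. Of 88 counts of genes at 2-fold under alternatives listed beforehand 74 kept the main value, meaning equal or within 1.5-fold, and 14 moved, and of 325 log2 ratios 169 stayed inside the 95% counting interval of the main value, 153 moved and 3 reversed, where reversed means that a ratio of at least 2-fold changed sign. Another 12 ratios under 2-fold changed sign. Apart from the matched bands described above, counts under alternatives have no all-gene share beside them, so they show only how the main counts moved. Alternatives chosen after seeing the data gave 20 counts, of which 8 moved, and 71 log2 ratios, of which 40 moved and 12 reversed, and 3 more changed sign under 2-fold.

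Over 20% mt- in erythroid barcodes 7 genes were higher in the main result. The mean of the share of each barcode left 1 (Kcnq1ot1) and reversed Malat1 (-0.47), Neat1 (-0.79) and Gm26917 (-0.43). With it Gm42418 (0.93), AY036118 (0.62) and Lars2 (0.81) were under 2-fold. Only 2000 to 4000 summed UMIs left 1 higher and 4 lower, and reversed Malat1 (-1.54), Neat1 (-2.20), Gm26917 (-3.00), Gm42418 (-0.46), AY036118 (-0.84) and Lars2 (-1.21). With non-mt- UMIs as denominator as well, 1 was higher and 2 lower, and Malat1 (-0.43), Neat1 (-1.09), Gm26917 (-1.89) and Lars2 (-0.10) reversed.

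In LEPR stromal barcodes over 20% mt- 0 genes were higher or lower. Non-mt- UMIs gave 2 higher (Meg3 and Gm26917), non-mt- non-globin UMIs 2, barcode means 2, at least 500 genes 1 (Meg3), and the lanes alone (without replicate 1, without replicate 2) 0 to 1 (Meg3). Marker shares of 2% and 0.6% gave 1 lower (Meg3). Meg3 had too few UMIs over the limit for a ratio with a useful interval, so its calls here are loose. Below 2-fold, both denominators without mt- UMIs turned Malat1 (0.14, 0.14), Neat1 (0.05, 0.05) and AY036118 (0.24, 0.24), dropping replicate 2 turned Meg3 (-0.23) and Kcnq1ot1 (-0.13), barcode means turned Lars2 (-0.16), and the marker shares turned Lars2 (-0.04). Clusters were not used there (3 barcodes over 20% mt-), nor was the band of 2000 to 4000 UMIs (6 barcodes).

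For depth in the erythroid class, where 0 genes were lower, Kcnq1ot1 made it 1 with a limit of 10% mt-, barcode means or 2 to 5% mt- UMIs, which left 4 of 6 higher. Neat1 was 1.01 with clusters. In the stromal class, Lars2 made 1 higher with non-mt- UMIs, with non-mt- non-globin UMIs or without called doublets, and Gm26917 made 1 lower with clusters. Clusters turned AY036118 (-0.12), and leaving out doublets turned Gm26917 (0.19).

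Between classes Gm26917 made 1 lower with clusters, barcode means and 4000 to 8000 UMIs. Barcode means left 4 of 6 higher, with Gm42418 (0.94) and Lars2 (0.96) under 2-fold and Neat1 at 1.51. The band left 2 of 6 higher (Malat1 and Neat1) and reversed Gm42418 (-0.24) and Lars2 (-0.24). Barcode means (0.20) and the band (0.13) turned Kcnq1ot1, and the marker shares turned Gm26917 (0.23). Why these values moved is unknown, and the cause was not tested.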

Other observations

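Limits apply to all values. The 3 mice were pooled, so variation between mice could not be measured, and intervals cover counting only. Shares of UMIs sum to a whole, and a gene can rise because others fall. The share in a group weights deep barcodes most. Over 20% mt- the LEPR stromal class had 39 barcodes. Damage, nuclear RNA and ribosomal RNA were not measured by another method, and ambient RNA was not removed. Classes rest on marker lists, and 815 barcodes met neither. The strand setting of the counting was not stated, and CT010467.1 was not analysed here.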
